A study of Mus musculus with 6 samples.

Results

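The fibrillar collagens described here are 8 genes, Col1a1, Col1a2, Col2a1, Col3a1, Col5a1, Col5a2, Col5a3 and Col11a1, taken by their symbols from the 31055 features that were counted in single cells of the mouse aortic root and ascending aorta. Each symbol matched 1 feature, and 44 features carry a collagen chain symbol in all. The cells came from 6 female mice on a 129 background at 16 weeks of age, each processed as its own library. According to the labels, 2 mice were control (Tgfbr1+/+), 2 were control with a tracer for cells of the cardiac neural crest (Tgfbr1+/+; Wnt2CRE; EGFP-L10a), and 2 carried the heterozygous missense allele Tgfbr1M318R/+ and are called LDS, for Loeys-Dietz syndrome, an aneurysm disorder. The tracer is a conditional allele that depends on a Cre driven by the Wnt2 promoter. It therefore marks only cells in which that Cre was active or that descend from such cells. The tissue ran from the sinus of Valsalva to the aortic arch, was digested with collagenase and elastase, and was sorted for intact, living nucleated cells. The number at the end of each cell barcode separates the libraries 1 to 6, but no source used here pairs these numbers with mice. LDS and control mice were therefore not compared, and every value is given by library or as a median with its lowest and highest library.

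Fibrillar collagens are the chains of the long, staggered fibrils that carry the tensile load of the vessel wall. The type I molecule joins chains from Col1a1 and Col1a2, the type III molecule is built from the Col3a1 chain alone, and both are the bulk of the collagen of the aortic media and adventitia. Type V chains (Col5a1, Col5a2 and Col5a3) are minor components that sit within type I fibrils and govern when fibrils form and how thick they grow. Type II (Col2a1) and type XI (Col11a1) chains build the thin fibrils of cartilage, and the type XI and type V chains are close relatives that can assemble together. Inherited variants of COL3A1, COL5A1 and COL5A2 cause forms of Ehlers-Danlos syndrome, and that of COL3A1 is known for arterial rupture.

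In the GENCODE M21 annotation of the mm10 build, Col1a1 lies at chr11:94936224-94953042 on the plus strand and Col1a2 at chr6:4504814-4541544 on the plus strand. Col3a1 (chr1:45311538-45349706, plus strand) and Col5a2 (chr1:45374321-45503282, minus strand) are neighbours on chromosome 1. Col5a1 lies at chr2:27886425-28039514 (plus strand), Col5a3 at chr9:20770050-20815067 (minus strand), Col11a1 at chr3:114030540-114220718 (plus strand) and Col2a1 at chr15:97975602-98004695 (minus strand). Annotated genes on the same strand overlap Col1a2 (Gm43921), Col3a1 (Gm47302) and Col5a2 (Gm38211), so reads of these pairs may have been split or shared in the counting. The 250 bases before the start of 4 members are shown 5′ to 3′ because 2 of them, Col3a1 and Col5a1, were counted in smooth muscle and fibroblasts alike and the other 2, Col5a3 and Col11a1, had few UMIs in smooth muscle. The sequences are RefSeq promoter windows of GRCm38.p6, and capitals mark every match on either strand to the CCAAT box, the GC box letters GGGCGG, the TATA box letters TATAAA, the GATA factor letters AGATAA or the SMAD letters CAGACA.
Col3a1 (chr1:45311288-45311537, plus strand): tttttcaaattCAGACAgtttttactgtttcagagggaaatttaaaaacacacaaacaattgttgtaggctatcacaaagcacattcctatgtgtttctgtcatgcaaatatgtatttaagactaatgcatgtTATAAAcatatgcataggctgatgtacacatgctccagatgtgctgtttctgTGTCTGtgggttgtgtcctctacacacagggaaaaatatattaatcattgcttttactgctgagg
Col5a1 (chr2:27886175-27886424, plus strand): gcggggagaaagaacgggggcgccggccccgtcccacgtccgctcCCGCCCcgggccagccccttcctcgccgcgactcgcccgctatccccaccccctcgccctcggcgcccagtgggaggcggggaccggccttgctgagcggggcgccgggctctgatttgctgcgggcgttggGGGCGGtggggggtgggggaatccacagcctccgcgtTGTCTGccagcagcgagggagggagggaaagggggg
Col5a3 (chr9:20815068-20815317, minus strand): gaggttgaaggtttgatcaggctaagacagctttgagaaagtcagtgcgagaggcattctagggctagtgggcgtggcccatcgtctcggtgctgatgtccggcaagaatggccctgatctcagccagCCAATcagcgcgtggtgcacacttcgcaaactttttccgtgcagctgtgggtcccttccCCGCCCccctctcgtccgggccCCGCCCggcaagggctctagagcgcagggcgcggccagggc
Col11a1 (chr3:114030290-114030539, plus strand): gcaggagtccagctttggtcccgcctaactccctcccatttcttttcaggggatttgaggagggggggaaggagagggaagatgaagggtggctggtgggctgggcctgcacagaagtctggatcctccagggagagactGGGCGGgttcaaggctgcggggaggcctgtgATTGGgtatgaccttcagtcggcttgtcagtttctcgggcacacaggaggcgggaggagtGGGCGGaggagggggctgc
The Col3a1 window held TATAAA 117 bases before the start and CAGACA on each strand, and it held neither CCAAT nor GGGCGG. The GC box letters were present 2 times in each of the other 3 windows, and CCAAT in the Col5a3 and Col11a1 windows. Of 32851 promoter windows of this length, 32.7% held GGGCGG, 33.8% CCAAT, 17.1% CAGACA, 12.4% TATAAA and 9.99% AGATAA, which none of the 4 windows held. A match describes letters and not a bound site. The Col1a2 window, which held the CCAAT box, the GC box letters 2 times and the SMAD letters, overlaps a transcript of the gene and is not shown, nor are windows of Col1a1, Col2a1 and Col5a2.

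After the filter of the study's methods, 24972 of 30716 cell barcodes remained, 1863 to 6395 per library, with 18218282 to 38105145 unique molecular identifiers (UMIs, 1 for each transcript captured) per library and a median of 5572 to 9838 per cell. Of 24896 different barcode sequences, 76 occurred in more than 1 library. No collagen gene was among the variable genes used to cluster the cells, and so no member defined a cluster. Clusters with smooth muscle markers held 10233 cells and are called VSMC-like (vascular smooth muscle cell), with a median over libraries of 2389 CPM (UMIs of a gene scaled to a common total of UMIs per cell group) of Myh11 against 29.8 CPM in fibroblast-like cells. Fibroblast-like clusters held 13623 cells, with 13633 CPM of Dcn against 304 CPM in VSMC-like cells. A further 569 cells were endothelial-like, 442 leukocyte-like and 105 formed a cluster led by Cd3e. Without integration over libraries, part of the VSMC-like cells of libraries 2 and 6 formed a cluster of their own, and results that moved without these libraries are given with both values.

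Fibroblast-like cells held more transcripts of every fibrillar collagen than VSMC-like cells. All 8 members together made up 0.960% of the UMIs of fibroblast-like cells as a median over libraries (0.765% to 1.42%) and 0.290% of those of VSMC-like cells (0.197% to 0.330%). Endothelial-like cells were at 0.0323% and leukocyte-like cells at 0.0399%. Because each 3′ UMI counts 1 transcript whatever its length, CPM values of different members were compared without scaling by length.

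Col1a1 and Col1a2, the 2 chains of type I collagen, were counted at similar levels. In fibroblast-like cells Col1a1 had 3356, 2639, 3202, 3151, 2682 and 5767 CPM in libraries 1 to 6, and in VSMC-like cells 794, 671, 898, 919, 542 and 548 CPM. Library 6 was the highest library among fibroblasts and the second lowest among smooth muscle cells, and the classes did not overlap. Col1a2 lay between 2140 and 4263 CPM (median 2609) in fibroblast-like and between 469 and 922 CPM (median 761) in VSMC-like cells, again with library 6 highest among fibroblasts. The log2 ratio of fibroblast-like over VSMC-like CPM was 2.03 for Col1a1 (1.78 to 3.40) and 1.78 for Col1a2 (1.35 to 2.59). Col3a1, the sole chain of type III collagen, had 3590, 3396, 3550, 2935, 2220 and 3684 CPM in fibroblast-like cells and 1041, 1030, 1259, 1332, 751 and 780 CPM in VSMC-like cells. Its classes did not overlap either, its ratio was 1.64 (1.14 to 2.24), and it was the most abundant member in VSMC-like cells in each of the 6 libraries. Fibroblast-like cells supplied 83.5% of all Col1a1 UMIs, 80.6% of Col1a2 and 78.0% of Col3a1.

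Of the type V chains, Col5a1 and Col5a2 were counted in both classes, and Col5a3 had few UMIs in smooth muscle. Col5a1, which takes part in nearly every type V molecule, had a median of 190 CPM in fibroblast-like (155 to 211) and 95.6 CPM in VSMC-like cells (65.1 to 110). Col5a2, its common partner, had 323 CPM (257 to 391) and 159 CPM (127 to 208). Neither gene overlapped between the classes, and their log2 ratios of 1.05 (0.90 to 1.33) and 1.06 (0.77 to 1.17) lay below that of Col1a1 in every library, so that smooth muscle supplied 29.4% of Col5a1 and 30.1% of Col5a2 UMIs against 16.1% of Col1a1. Col5a3, a chain of more restricted expression, had 17.6, 19.9, 21.5, 22.9, 18.7 and 18.3 CPM in fibroblast-like cells of libraries 1 to 6, the most even level of any member. In VSMC-like cells it had 0.132, 0.545, 0.419, 1.15, 0.189 and 0.113 CPM, from 33 UMIs in all against 1889 in fibroblasts. The log2 ratio of Col5a3 was 6.002 (4.28 to 6.74).

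The cartilage chains were rare. Col11a1 had 21.1, 8.44, 8.68, 9.63, 14.3 and 10.95 CPM in fibroblast-like cells (1035 UMIs), highest in library 1. VSMC-like cells held 16 Col11a1 UMIs, 9 of them in library 4 and none in libraries 2 and 6. With 1 sum over all libraries, the log2 ratio of Col11a1 was 5.78, and the median over libraries of 6.80 (3.75 to 7.90) rests in libraries 2 and 6 on the prior of 0.5 UMI. Col2a1 was found as 135 UMIs in 17 of 24972 cells. Fibroblast-like cells held 10.1 CPM of Col2a1 in library 1 and 0.0474 to 0.656 CPM in the other libraries, and VSMC-like cells held 2 UMIs, both in library 1. Without 2 cells, which held 63 and 35 UMIs, the Col2a1 level of library 1 was 0.301 CPM.

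In counts of directions, all 7 members with at least 10 CPM in either class (all but Col2a1) were higher in fibroblast-like cells in all 6 libraries. Of 8703 genes with such a level, 38.0% were higher in fibroblast-like cells in all 6 libraries and 34.7% were lower (72.7% in either direction), so the direction alone does not set the members apart, and these genes had a median log2 ratio of 0.02. The share of all genes without overlap between the classes was not computed. The lack of overlap of single members is therefore a description alone and does not set them apart. Libraries carry no group label here and the classes came from the same cells, so no test was run.

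**Figure D1:**
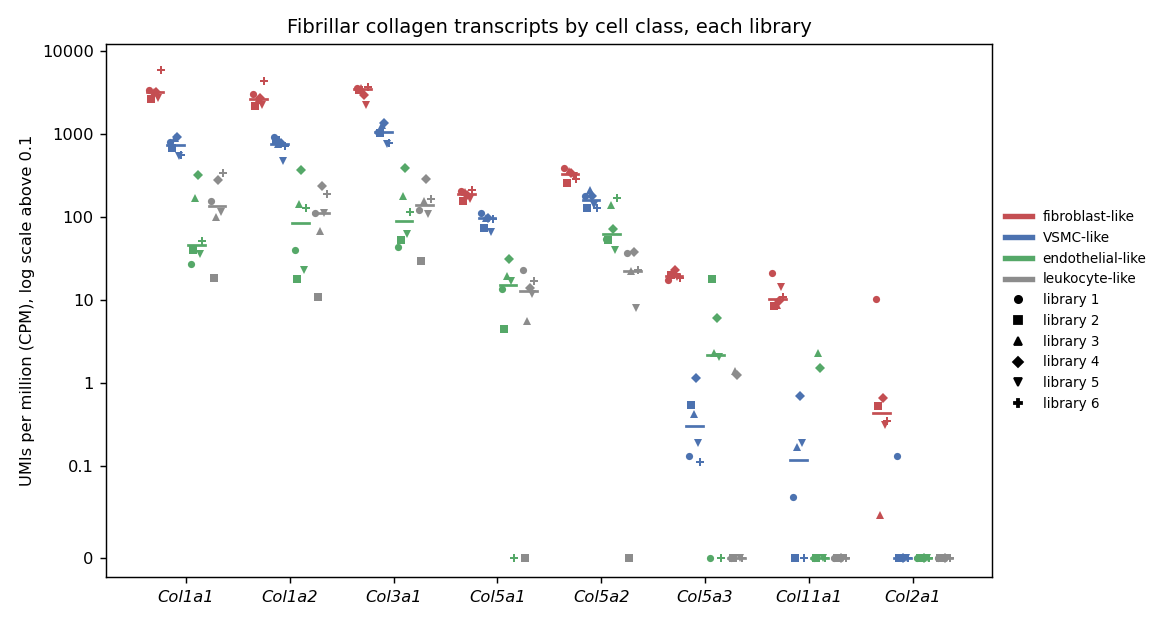
CPM of each fibrillar collagen (x axis) in each library by cell class, on an axis that is logarithmic above 0.1, with 1 symbol per library and the median as a bar. For the 5 abundant members the fibroblast-like points lie above all VSMC-like points, and Col5a3, Col11a1 and Col2a1 are low in VSMC-like cells, while the Col5a3 point of endothelial-like cells in library 2 (17.7 CPM, from 4 UMIs in 35 cells) lies within the fibroblast-like range.

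RNA released from broken cells gives UMIs in cells that do not express a gene, and leukocyte-like cells were used to gauge it. Col1a1, Col1a2 and Col3a1 in leukocyte-like cells were at 4.46%, 4.03% and 4.41% of their fibroblast-like level. Dcn and Lum, which are fibroblast transcripts, were at 4.06% and 3.32%, and the other fibroblast markers ran from 2.97% (Pdgfra) to 5.96% (Gsn). Col5a1 and Col5a2 were above these, at 7.46% and 7.13%, from 34 and 71 UMIs. In VSMC-like cells Col1a1, Col1a2 and Col3a1 were at 24.6%, 29.2% and 32.1% of the fibroblast-like level. Col5a1 and Col5a2 were at 48.4% and 48.1% there, whereas Dcn was at 2.04% and Lum at 3.61%. Over libraries, the leukocyte-like shares ran from 0.692% to 8.75% for Col1a1, from 1.24% to 6.50% for Dcn and from 0.797% to 7.83% for Lum. After thinning of each cell to 3000 UMIs, a Col1a1 UMI was found in 96.5% of 12389 fibroblast-like cells (95% exact interval 96.1% to 96.8%), 76.2% of 9682 VSMC-like cells (75.4% to 77.1%) and 13.7% of 380 leukocyte-like cells (10.4% to 17.6%). Col3a1 was found in 93.8%, 85.3% and 15.8%, Col5a2 in 55.1%, 35.7% and 5.26%, and Col5a1 in 38.7%, 23.0% and 2.37% of the same cells. Col5a3 was found in 5.29% of fibroblast-like and 0.155% of VSMC-like cells and in 0 of 380 leukocyte-like cells, which allows up to 0.966% by the exact interval. Before thinning, at median depths of 6116, 7206 and 5638 UMIs, the Col1a1 shares were 98.2%, 89.8% and 18.1%. These intervals cover counting error only, since cells of a library are not replicates.

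Within single fibroblast-like cells, the type I and III transcripts went together. The correlation of log(count + 1) of Col1a1 and Col1a2 over thinned cells of a library had a median of r = 0.673 (0.631 to 0.823), and that of Col1a1 and Col3a1 of 0.607 (0.512 to 0.717). These are descriptions, since the cells share a library and a fixed depth. In VSMC-like cells the correlations were 0.348 and 0.258, at a median of 2 Col1a1 UMIs per 3000 against 7 in fibroblast-like cells. The tenth of fibroblast-like cells with the most Col1a1 held 36.5% of its thinned UMIs.

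The fibroblast-like cells were clustered again, without collagen genes, into 12 subclusters, which are called by their 3 leading genes. Of these, 9 had at least 10 cells in each library and markers of no other class. Type I collagen transcripts were most abundant in the Mmp3/C2/Mmp27 subcluster (620 cells), with 4073, 4563, 4781, 5430, 6869 and 10846 CPM of Col1a1 in libraries 1 to 6 (median 5105) and a median of 4645 CPM of Col1a2. Colec11/Pex5l/Cpxm2 (3645 cells) had 4779 CPM of Col1a1 and 4216 CPM of Col1a2 and supplied 31.6% of all Col1a1 UMIs. Igfbp5/Pthlh/Enpep (372 cells) followed with 4538 CPM and Ptn/Tmem215/Igfbp3 (570 cells) with 4234 CPM of Col1a1. These 4 neighbours did not keep their order, since Mmp3/C2/Mmp27 was the highest of 9 in 3 of 6 libraries. Library 6 had the highest Col1a1 level of the libraries in 6 of the 9 subclusters. Col3a1 was highest in Ptn/Tmem215/Igfbp3 (4371 CPM, highest in 3 of 6 libraries) and next in Mmp3/C2/Mmp27 (4282 CPM).

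Fibroblasts with antigen presentation transcripts held the least type I and III collagen. The Cd74/H2-Eb1/H2-Aa subcluster (814 cells), which matched the markers Coch, Wif1 and Prss35, had 1248, 1142, 1496, 1338, 1166 and 1085 CPM of Col1a1 and 865, 654, 685, 620, 670 and 649 CPM of Col1a2. Its Col3a1 level was 520 to 914 CPM (median 711) and its Col5a1 level 42.1 to 90.5 CPM (median 52.2). In each of the 6 libraries it was the lowest of the 9 subclusters for Col1a1, Col1a2, Col3a1 and Col5a1. As background, 2.24% of 9349 genes had 1 and the same fibroblast-like subcluster, whichever it was, lowest in all 6 libraries. The highest subcluster exceeded it 4.23-fold in Col1a1, 7.02-fold in Col1a2, 6.15-fold in Col3a1 and 4.42-fold in Col5a1. Col5a2 did not share this pattern, with 253 CPM (168 to 417) against 243 to 402 CPM as medians of the other 8 subclusters, although it had the lowest median when library 1, 3 or 4 was left out (211 CPM, lowest in 3 of 5 libraries) and at a resolution of 0.2 (lowest in 5 of 6 libraries). Cells marked as doublets were 1.47% of this subcluster, and its lowest place for Col1a1, Col1a2, Col3a1 and Col5a1 also held in all 6 libraries at the resolutions 0.2 and 0.5.

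The subclusters with the highest Col5a1 and Col5a2 depended on the libraries used. Col5a1 had 230.6 CPM in Wnt10b/Dact2/Cadm3 (3242 cells, highest in 4 of 6 libraries), a subcluster with 2610 CPM of Col1a1, and 229.6 CPM in Igfbp5/Pthlh/Enpep, with 4538 CPM of Col1a1, which became the highest when library 1, 3 or 4 was left out. Col5a2 was highest in Cilp2/Spp1/Ucma (824 cells), with 665, 395, 397, 364, 406 and 572 CPM, but Ptn/Tmem215/Igfbp3, the highest for Col3a1, took its place (409.6 CPM) when library 2, 5 or 6 was left out. Col5a3 was highest in Ccl7/Il6/Has1 (1855 cells), which is led by cytokine genes, with 34.1 CPM (23.8 to 39.2), and in Wnt10b/Dact2/Cadm3 with 30.4 CPM (29.4 to 39.8). The 2 ranges overlapped. Colec11/Pex5l/Cpxm2, with 4779 CPM of Col1a1 against 2053 CPM in Ccl7/Il6/Has1, had 10.6 CPM of Col5a3 (7.54 to 12.5), below every library of these 2, and Cd74/H2-Eb1/H2-Aa had the lowest median (8.31 CPM). After thinning, a Col5a3 UMI was found in 8.69% of Wnt10b/Dact2/Cadm3 cells (95% exact interval 7.66% to 9.81%, counting error only), 8.04% of Ccl7/Il6/Has1 cells (6.80% to 9.42%) and 2.89% of Colec11/Pex5l/Cpxm2 cells (2.34% to 3.51%).

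Col11a1 and Col2a1 had their highest median levels in the Cilp2/Spp1/Ucma subcluster. It had 909 CPM of Chad and 2638 CPM of Comp, matrix proteins of cartilage and tendon. It held 243, 22.1, 47.5, 44.0, 65.8 and 91.0 CPM of Col11a1 (median 56.6), the highest of the 9 subclusters in 5 of 6 libraries, and library 1 stood far above the others. Ptn/Tmem215/Igfbp3 came next with 13.1 to 57.8 CPM (median 37.4) and had the higher value in library 2 (54.1 CPM), although its Chad level was 0.833 CPM. The other 7 subclusters had medians of 2.21 to 11.002 CPM. After thinning, a Col11a1 UMI was found in 13.3% of Cilp2/Spp1/Ucma cells (95% exact interval 11.005% to 15.8%), 10.4% of Ptn/Tmem215/Igfbp3 cells (7.91% to 13.3%) and 0.691% to 2.60% of the cells of the other 7. Of the 17 cells with a Col2a1 UMI, 12 belonged to Cilp2/Spp1/Ucma and held 130 of the 135 UMIs. The 2 richest cells, with 63 and 35 UMIs, were both in library 1 and held 72.6% of all Col2a1 UMIs, the third held 12 UMIs and was in library 4, and 9 cells held 1 UMI each. A Chad UMI was present in 14 of the 17 cells, Comp in 13, Col11a1 in 7 and Acan, the core protein of cartilage aggrecan, in 6, and none was marked as a doublet. The 2 richest Col2a1 cells held no Col11a1 UMI. Acan had 92 UMIs in Cilp2/Spp1/Ucma and 0 to 2 in each of the other 8 subclusters, whereas Sox9, a transcription factor of cartilage cells, was counted in all 9 and was highest in Cd74/H2-Eb1/H2-Aa (480 CPM against 306 CPM). Other cartilage genes were likewise not highest in Cilp2/Spp1/Ucma, since Cd74/H2-Eb1/H2-Aa had 31.8 against 19.6 CPM of Hapln1, 23.2 against 15.7 CPM of Col9a3, 18.7 against 15.7 CPM of Sox5 and 17.3 against 16.8 CPM of Col9a1. Acan was more abundant in VSMC-like cells (698 UMIs against 117 in fibroblast-like cells), with 25.7 CPM in Olfr558/Acta1/Nrip2.

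**Figure D2:**
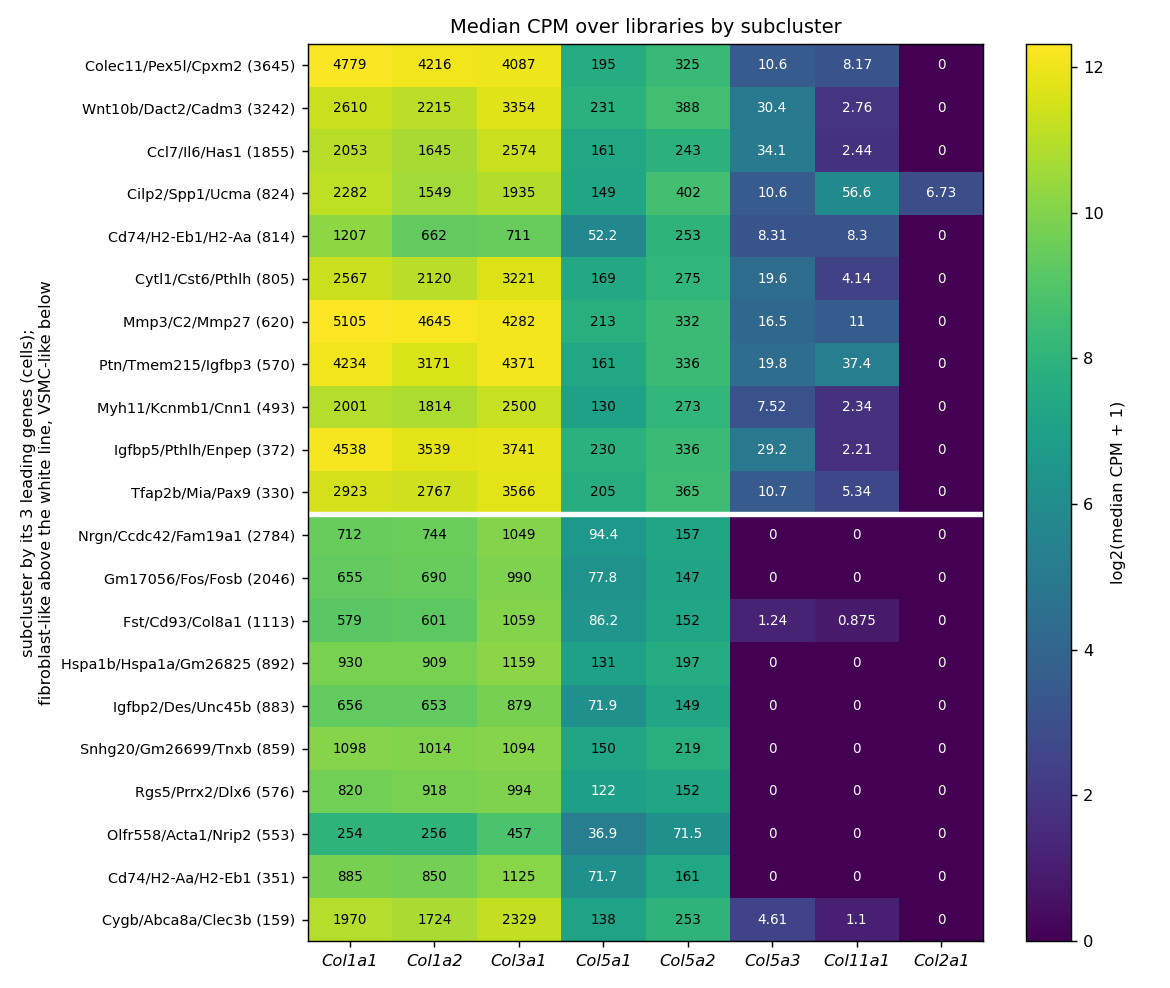
Median CPM over libraries of each fibrillar collagen (columns) in each subcluster of at least 100 cells (rows, with the number of cells), colored by log2(CPM + 1), with fibroblast-like subclusters above the white line and VSMC-like subclusters below it. Col1a1 spans 1207 to 5105 CPM over the 9 compared fibroblast-like subclusters and is at 254 CPM in Olfr558/Acta1/Nrip2, and Col11a1 stands out in Cilp2/Spp1/Ucma (56.6 CPM) and Ptn/Tmem215/Igfbp3 (37.4 CPM).

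Among smooth muscle subclusters, 1 had the least of all 5 abundant fibrillar collagens. Of 11 VSMC-like subclusters, 8 had at least 10 cells in each library and markers of no other class. Olfr558/Acta1/Nrip2 (553 cells), which matched the markers Pln, Pgam2 and Olfr558, had 171, 344, 402, 318, 190 and 84.8 CPM of Col1a1 (median 254) and 149 to 457 CPM of Col1a2 (median 256). Its Col3a1 level was 268 to 799 CPM (median 457), its Col5a1 level 36.9 CPM and its Col5a2 level 71.5 CPM. It was the lowest of the 8 in each of the 6 libraries for all 5 of these genes. As background, 6.19% of 8801 genes had 1 and the same VSMC-like subcluster, whichever it was, lowest in all 6 libraries. Among the other 7 subclusters, medians ran from 579 to 1098 CPM for Col1a1, from 879 to 1159 CPM for Col3a1 and from 147 to 219 CPM for Col5a2. The size of this difference depended on the resolution. At 0.2 these cells fell in a larger subcluster led by Olfr558, Thbs1 and Pgam2 with 504 CPM of Col1a1 and 924 CPM of Col3a1, the highest over the lowest subcluster changed from a log2 ratio of 2.11 to 1.12 for Col1a1 and from 1.34 to 0.24 for Col3a1, and Col3a1 was lowest there in 4 of 6 libraries.

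The highest levels of Col1a1 (1098 CPM), Col5a1 (150 CPM) and Col5a2 (219 CPM) were in Snhg20/Gm26699/Tnxb (859 cells), which led in 5 of 6 libraries for each. No member had the same highest subcluster in all 6 libraries, whereas 6.56% of 8801 genes did among VSMC-like and 6.25% of 9349 genes among fibroblast-like subclusters. Hspa1b/Hspa1a/Gm26825 (892 cells), led by heat shock genes, had 930, 131 and 197 CPM of these. Both had shallow cells, with medians of 4572 and 4140 UMIs against 7206 over VSMC-like cells, and the part of depth in their levels was not tested. Igfbp2/Des/Unc45b (883 cells) had 656 CPM of Col1a1 and Rgs5/Prrx2/Dlx6 (576 cells) 820 CPM, with overlapping ranges of 483 to 925 and 599 to 1013 CPM. The smooth muscle cells with antigen presentation transcripts, Cd74/H2-Aa/H2-Eb1 (351 cells, at least 10 in 5 libraries), had 885 CPM of Col1a1 (698 to 1248), within the range of the other subclusters. Cygb/Abca8a/Clec3b (159 cells) had 1970 CPM of Col1a1, fibroblast markers, and 78.0% of cells marked as doublets, and the fibroblast-like subcluster led by Myh11 (493 cells) had 37.1%. Col5a3, Col11a1 and Col2a1 had medians of 0 CPM in the VSMC-like subclusters, other than Fst/Cd93/Col8a1, with 1.24 CPM of Col5a3 and 0.875 CPM of Col11a1, and Cygb/Abca8a/Clec3b, with 4.61 CPM of Col5a3 and 1.10 CPM of Col11a1.

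The proportions of the chains differed between the classes. In VSMC-like cells, 1.31, 1.53, 1.403, 1.45, 1.39 and 1.42 Col3a1 UMIs were counted per Col1a1 UMI in libraries 1 to 6, and in fibroblast-like cells 1.07, 1.29, 1.11, 0.932, 0.827 and 0.639. The VSMC-like ratio was higher in every library, and its lowest value (1.31) lay just above the highest fibroblast-like value (1.29). The type V chains summed were 35.2% of Col1a1 in VSMC-like cells (30.0% to 40.6%) and 17.6% in fibroblast-like cells (8.93% to 18.3%), with no overlap and with library 6 lowest among fibroblasts. Col5a2 per Col5a1 was similar, 1.80 (1.33 to 2.15) and 1.83 (1.35 to 1.91). Col5a3 was 11.1% of Col5a1 in fibroblast-like cells (8.595% to 12.8%) and 0.36% in VSMC-like cells (0.12% to 1.20%).

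Col1a2 and Col1a1, whose chains are joined in a fixed proportion in the type I molecule, were not in a fixed proportion as transcripts. In fibroblast-like cells there were 0.739 to 0.895 Col1a2 UMIs per Col1a1 UMI (median 0.823). In VSMC-like cells the ratio was 1.16, 1.25 and 1.29 in libraries 1, 2 and 6 and 0.839, 0.837 and 0.866 in libraries 3, 4 and 5. Libraries 1, 2 and 6 were also the deeper ones, with medians of 7530, 9838 and 9615 UMIs per cell against 6436, 5572 and 5814. The study prepared its samples on several days, and the day of each library is not known here. The part of depth or day in this split was not tested. Library 6 had the highest ratio in 6 of the 8 VSMC-like subclusters compared and library 2 in the other 2. The lowest ratio of the fibroblast-like subclusters was that of Cd74/H2-Eb1/H2-Aa (0.574, 0.457 to 0.693), followed by Cilp2/Spp1/Ucma (0.683, 0.556 to 0.771), and their ranges overlapped. Cd74/H2-Eb1/H2-Aa also had the lowest Col3a1 per Col1a1 (0.571, 0.454 to 0.789) and the highest Col5a2 per Col5a1 (4.42, 3.69 to 6.33), and the latter lay above every library of the other 8 subclusters compared. Among smooth muscle cells, Olfr558/Acta1/Nrip2 had the highest Col3a1 per Col1a1 (1.88, 1.73 to 3.15), from 1105 Col1a1 UMIs, and it overlapped with Fst/Cd93/Col8a1 (1.62, 1.46 to 2.01).

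**Figure D3:**
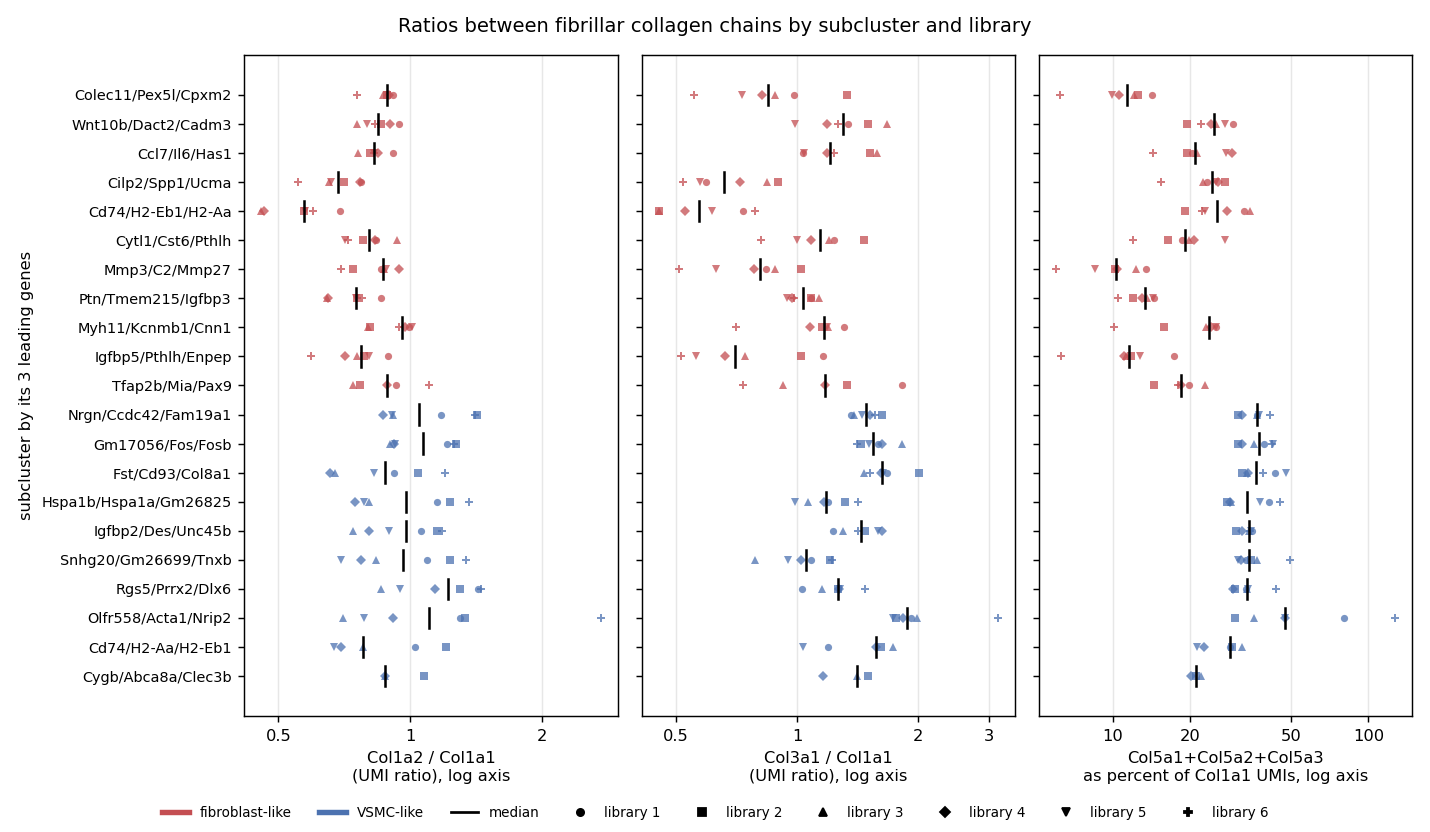
Ratios of UMIs between fibrillar collagen chains (x axes, logarithmic) in each subcluster of at least 100 cells (rows), with fibroblast-like subclusters in red, VSMC-like subclusters in blue, 1 symbol per library and the median as a black line. Col3a1 per Col1a1 is 0.571 in Cd74/H2-Eb1/H2-Aa and 1.88 in Olfr558/Acta1/Nrip2, and the type V chains are 35.2% of Col1a1 over all VSMC-like and 17.6% over all fibroblast-like cells.

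The study divides smooth muscle into VSMC1, with high Tes and Ptprz1, and VSMC2, with high Enpep and Notch3, and compares them. At a resolution of 0.05, the largest subcluster of VSMC-like cells (7878 cells) was called VSMC1-like and the one with the most Enpep and Notch3 relative to Tes and Ptprz1 (1783 cells) VSMC2-like, and a subcluster of 572 cells, nearly all of Rgs5/Prrx2/Dlx6, was left out. The median level of Col1a1 was 614 CPM in the VSMC2-like group against 737 CPM in the VSMC1-like group, and that of Col3a1 was 1051 against 1028 CPM. The median difference on the log2 scale, VSMC2-like minus VSMC1-like, was -0.18 for Col1a1 (-0.70 to 0.25), -0.39 for Col1a2 (-0.76 to 0.20), -0.03 for Col3a1 (-0.45 to 0.20), -0.26 for Col5a1 (-0.43 to 0.00) and -0.25 for Col5a2 (-0.49 to 0.21). None of the 5 genes went the same way in all 6 libraries. Of 7980 genes, 34.4% did so, 13.9% with more and 20.6% with less in the VSMC2-like group. Col1a1, Col1a2 and Col5a2 were higher in VSMC2-like cells in library 4, Col5a1 in library 2, and Col3a1 in libraries 2, 3 and 4.

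Leaving out doublets changed the direction in single libraries, while the medians of all 5 genes were below 0 with and without doublets. Dcn was at 1101 CPM in VSMC2-like and 164 CPM in VSMC1-like cells, and all 159 cells of Cygb/Abca8a/Clec3b, of which 78.0% were marked as doublets, were VSMC2-like. The study itself reports higher Dcn in VSMC2 than in VSMC1, and the part of doublets in the Dcn level was not tested. Without cells marked as doublets, the log2 ratio was -0.63 for Col1a1, -0.76 for Col1a2, -0.23 for Col3a1 and -0.45 for Col5a1, each with less in the VSMC2-like group in all 6 libraries, beside 22.2% of 7964 genes lower in all 6. Col5a2 (-0.35) was lower in 5 of 6 libraries. Without the subclusters that carried markers of another class, an alternative chosen after seeing the data, the values were -0.60, -0.74, -0.27 and -0.40 for the same 4 genes, again lower in all 6 libraries (background 22.5%), and -0.30 for Col5a2. When the cells were clustered without integration, all 5 genes had less in the VSMC2-like group in all 6 libraries (background 24.0% of 8024 genes), with -1.17 for Col1a1, -1.27 for Col1a2, -0.60 for Col3a1, -0.91 for Col5a1 and -0.50 for Col5a2. Both groups then held different cells. The VSMC1-like group had 175 and 174 cells in libraries 2 and 6 against 640 and 579 as reported, and part of the VSMC-like cells of these libraries formed a cluster of their own. In libraries 1, 3, 4 and 5 it had 1379, 1357, 1431 and 2727 cells against 1312, 1314, 1392 and 2641. The VSMC2-like group had 1370 cells against 1783, with 1284 shared, and in library 4 it had 267 against 449. The 2 main parts of the VSMC2-like cells had different levels, since 1017 cells of Fst/Cd93/Col8a1 had a subcluster median of 579 CPM of Col1a1 and 550 cells of Olfr558/Acta1/Nrip2 a median of 254 CPM.

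**Figure D4:**
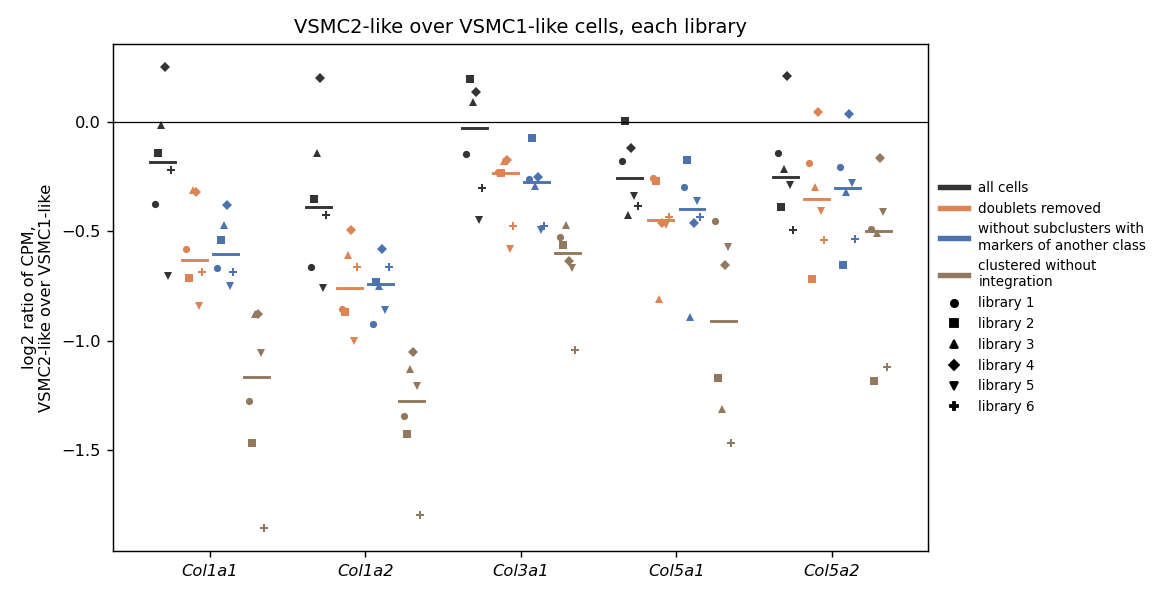
Log2 ratio of CPM in VSMC2-like over VSMC1-like cells for the 5 abundant fibrillar collagens, 1 symbol per library with the median as a bar, for all cells, without doublets, without subclusters with markers of another class, and with clusters made without integration. The median of Col1a1 is -0.18 with all cells, -0.63 without doublets and -1.17 without integration, and a point above 0 is a library with more transcript in VSMC2-like cells.

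The genes that process, secrete, crosslink and bind fibrillar collagens were followed in 9 lists, of which 56 genes had at least 10 CPM in either class. Of the 56, 45 were higher and 6 lower in fibroblast-like than in VSMC-like cells in all 6 libraries, beside 38.0% and 34.7% of all genes tested. Fibril partners, which coat or link fibrils, were higher in all 10 cases, with a median log2 ratio of 3.88. Dcn, Lum and Dpt of this list were also among the markers by which the fibroblast-like class was named, so their direction was set by that choice. The list ran from Bgn (0.39, 4999 against 3820 CPM) and Sparc (0.89), both abundant in smooth muscle too, to Fmod (6.25, 196 against 3.01 CPM), with Dpt at 6.06. Propeptide removal, the step that lets procollagen form fibrils, was higher in 4 of 4 genes, with Adamts2 at 1.87 (343 against 88.3 CPM), the metalloprotease Bmp1 at 2.58, Pcolce2 at 2.64 and the enhancer Pcolce at 4.43 (1070 against 50.3 CPM). Breakdown, with matrix metalloproteinases and their inhibitors, was higher in 6 of 6 genes, from Mmp14 (1.37) and Timp3 (1.47) to Mmp2 (4.32) and Timp1 (4.63).

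The steps inside the cell differed less. Of 16 hydroxylation and folding genes, 11 were higher and 1 was lower in fibroblast-like cells in all 6 libraries, with a median of 0.57. P3h3 (1.10) and P4ha1 (1.06) had the largest ratios, P4ha2, another prolyl 4-hydroxylase subunit, was the lower gene (-0.66, 26.7 against 47.0 CPM), and P3h2 had a median of -0.39 and was higher in 1 library. Of 5 secretion genes, 4 were higher, with Creb3l1 at 0.76, Mia3, a cargo receptor for procollagen, at 0.30 and Sec24d at 0.14, and Sec23a was lower (-0.38). Of 4 crosslinking genes, Loxl2 (1.47), Loxl1 (1.18) and Loxl3 (0.65) were higher in all 6 libraries, whereas Lox had 119 and 110 CPM and was higher in 2 of 6. Among receptors and uptake, 3 of 5 were lower in fibroblast-like cells, and the collagen-binding integrin chains Itga1 (-2.17) and Itgb1 (-1.99, 445 against 2055 CPM) had the lowest ratios of the list, while the receptors Ddr2 (0.86) and Mrc2 (2.24) were higher. Col27a1, the 1 other fibrillar chain tested, was higher (0.72). Of 5 cartilage genes, Chad (6.83), Cilp2 (5.02), Sox9 (4.54) and Sox5 (0.26) were higher, and Sox6 was lower (-0.87). Between VSMC2-like and VSMC1-like cells, 0 of 16 hydroxylation and folding genes were higher and 5 were lower in all 6 libraries, with P4ha2 at -0.57, and 5 of 9 fibril partners were higher and 2 lower, beside 13.9% higher and 20.6% lower among all genes. The 5 were Dcn, Lum, Dpt (3.23), Fmod and Comp, which are also fibroblast transcripts, in a group that holds the 159 cells of Cygb/Abca8a/Clec3b, and the part of these cells in the result was not tested. All 4 cartilage genes tested were higher in all 6 libraries, Sox9 (1.66), Acan (1.41), Sox6 (1.33) and Sox5 (1.19). Breakdown had 4 of 6 genes higher (Mmp2, Timp1, Ctsk and Mmp14) and 0 lower. Propeptide removal had 1 of 4 higher (Pcolce, 2.11), and crosslinking had 1 of 4 higher (Loxl2) and 2 lower. Sox9, Sox5, Pcolce, Loxl2 and the 4 breakdown genes were also higher in fibroblast-like than in VSMC-like cells in all 6 libraries. Sox6 (-0.87) and Acan (-2.63) were lower there. The part of the 159 cells in these counts was not tested either. Secretion had 0 of 5 higher and 1 lower, as had receptors and uptake.

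**Figure D5:**
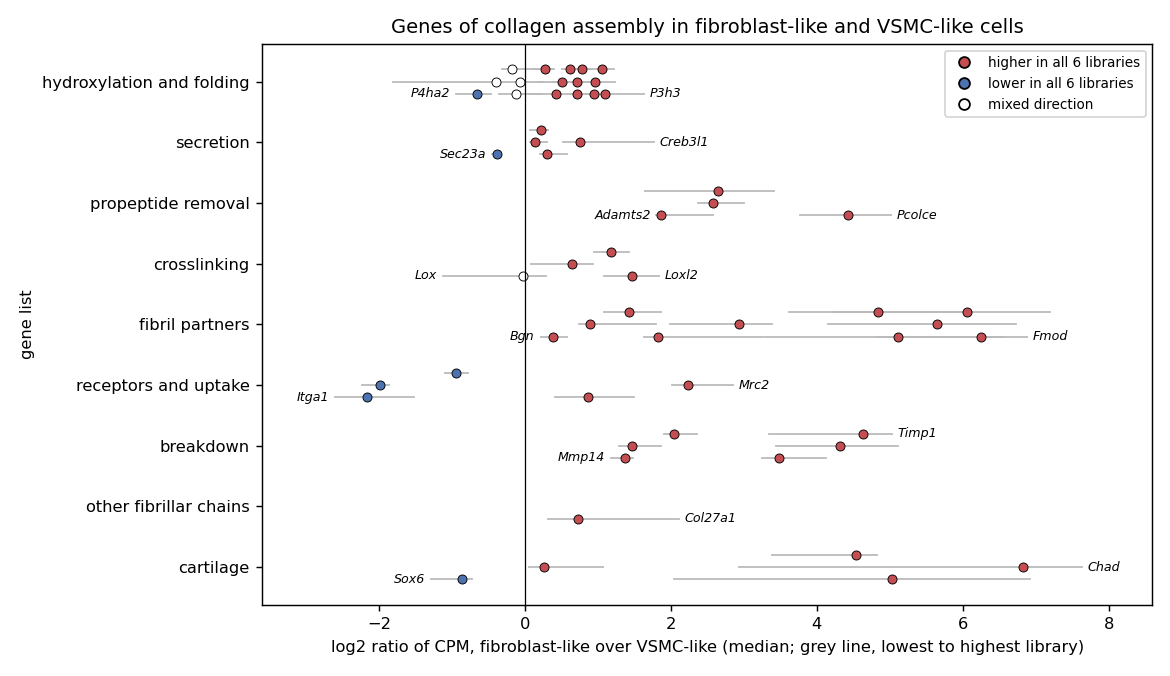
Log2 ratio of CPM in fibroblast-like over VSMC-like cells for the 56 tested genes of 9 lists (rows), as the median over 6 libraries with a grey line from the lowest to the highest library, colored by whether all 6 libraries went the same way. Fibril partners, propeptide removal and breakdown lie above 0 throughout, and Itga1 and Itgb1 lie near -2.

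Across 26 cell groups, which were the subclusters and the other classes, the median level of Col1a1 as log2(CPM + 1) was most like that of Col1a2 (Pearson r = 0.991) and Col3a1 (0.977) among the members, followed by Col5a1 (0.948), Col5a2 (0.844), Col11a1 (0.679) and Col5a3 (0.570). Among 11777 other genes, the 3 most like Col1a1 were Selenos (0.978), Ephb3 (0.969) and the procollagen protease Adamts2 (0.956). Selenos and Ephb3 were also among the 3 most like Col1a2 and Col3a1, with the crosslinking enzyme Loxl1 (0.964) for Col1a2 and Adamts2 (0.956) for Col3a1. Col5a1 was most like Loxl1 (0.947), Col5a2 most like Fgfr1 (0.964), Ggcx (0.961) and Nfix (0.953), and Col5a3 most like Abca8b (0.952), Aspa (0.948) and Scn7a (0.944). Col11a1 was most like Col8a2 (0.925) and Fam180a (0.897). For Col2a1 no likeness is given, since its median was above 0 in 1 subcluster alone. These correlations are descriptions over groups that share the same 6 libraries.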

How the data were processed

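Single cells of the aortic root and ascending aorta of 6 mice were measured by 10x 3′ RNA-seq. The authors deposited 1 matrix of UMI counts, which is not normalized. The submitters' processing notes name Cell Ranger 6 and the mm10 build, and the matrix header names version 4.0.0. Cells with 1000 to 5000 genes, 1500 to 25000 UMIs and under 20% mitochondrial UMIs were kept, which left 1863 to 6395 cells and 18218282 to 38105145 UMIs per library. Depth per cell was a median of 5572 to 9838 UMIs, which limits Col5a3, Col11a1 and Col2a1.

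Cells were clustered in Seurat 5.3.0 (R 4.3.3, sctransform 0.4.2) with 3000 variable genes without collagen genes, 30 principal components and reciprocal PCA integration over libraries, at resolutions of 0.25 for classes, 0.3 for subclusters and 0.05 for VSMC1-like and VSMC2-like cells. At 0.05, 3 subclusters held at least 5% of VSMC-like cells (77.0%, 17.4% and 5.59%) where 2 had been planned. After this was seen, the largest was taken as VSMC1-like, the one with the most Enpep and Notch3 relative to Tes and Ptprz1 as VSMC2-like, and the smallest was left out. Doublets were marked with scrublet in scanpy 1.11.5 (Python 3.11.15, numpy 2.4.6, pandas 2.3.3, scipy 1.17.1) and kept in the reported values. Its threshold marked 0.490% and 0.0891% of cells in libraries 2 and 5, which was taken as too few, and the top 5% of scores were used there. Library 6, at 0.537%, kept its threshold. Marking was therefore uneven, from 0.537% of cells in library 6 to 4.58% in library 2, and its part in results without doublets was not tested.

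Counts were summed by library and cell group and divided by the group's total UMIs (CPM). Log2 ratios used a prior of 0.5 UMI, and genes with at least 10 CPM in either group, called tested, were counted where all 6 libraries had 1 direction. Thinning drew 3000 UMIs per cell and left out shallower cells. Because no source pairs libraries with mice or groups, no model was fitted and no p-value is given. The ratio code was tested on simulated data. Within each list, the genes with the 2 highest and 2 lowest ratios were named, and for each member the 3 genes with the most similar levels over cell groups. Other genes were named where a value turned on them. The members and lists were chosen with earlier results of these data known. Alternatives were no integration, collagen genes kept among variable genes, other resolutions, doublets removed, thinned cells, subtraction of the leukocyte-like level, a prior of 2 UMIs, a limit of 10% mitochondrial UMIs, 1 sum over libraries and each library left out.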

Additional observations from a re-analysis of the deposited data

Results flagged for a closer look

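In 23 series of 6 library values for the members, 3 had a library far from the other 5, and chance alone marks about 1 in 20 such series. Col1a1 in fibroblast-like cells was at 5767 CPM in library 6 against 2639 to 3356 CPM in the others. The log2 ratio of Col1a1 in fibroblast-like over VSMC-like cells was 3.40 in library 6, which also had the second lowest VSMC-like level (548 CPM). Col2a1 in fibroblast-like cells was at 10.1 CPM in library 1, and at 0.301 CPM without the 2 cells that held 63 and 35 of its UMIs.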

How the results depend on the processing

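Among the main values of the results, 33 of 35 under alternatives other than leaving out a library were counted as unmoved. The measure was the spread between libraries, except for the number of list genes, which was judged by a fixed fold limit. The exceptions were the median log2 difference, VSMC2-like minus VSMC1-like, over 5 members, -0.25 as reported and -0.91 without integration, and Col3a1 per Col1a1 in VSMC-like cells, 1.41 as reported and 1.52 with the leukocyte-like CPM subtracted. With each library left out in turn, these 2 values ran from -0.29 to -0.18 and from 1.403 to 1.42, the summed CPM of the members in fibroblast-like cells from 9319 to 9875, the median fibroblast-like over VSMC-like log2 ratio of 7 members from 1.75 to 1.80, the log2 span of Col1a1 over fibroblast-like subclusters from 1.94 to 2.22, and the list genes higher in fibroblast-like cells from 45 to 45. Over the other alternatives 39 to 45 list genes were higher, with 39 after subtraction of the leukocyte-like level. For single members, 176 values stayed within the spread between libraries and 16 moved, and of 222 with a library left out 1 moved, the log2 span of Col3a1 over VSMC-like subclusters, from 1.34 to 1.77 without library 2. The span of Col5a2 there was 1.26 without libraries 2 and 6 against 1.61. Leaving out libraries 2 and 6, or subclusters with markers of another class, was chosen after seeing the data. The cause of these changes was not tested. No paired analysis was possible because no source ties the barcode suffixes to the replicate numbers of the labels, so groups of mice could not be paired, while ratios between cell groups were taken within each library. Low counts limit Col5a3, Col11a1 and Col2a1 in VSMC-like cells.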

Other observations

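Endothelial-like cells held Col5a2 at 53.5, 53.0, 137, 70.4, 39.6 and 166 CPM in libraries 1 to 6. This was 20.7% of the fibroblast-like level as a median (13.0% to 58.2%), against 1.41% for Col1a1 and 9.88% for Dcn. After thinning, a Col5a2 UMI was found in 17.1% of 415 endothelial-like cells (95% exact interval 13.6% to 21.1%) and 5.26% of 380 leukocyte-like cells (3.24% to 8.01%), at median depths of 4692 and 5638 UMIs before thinning. In the cluster led by Ccl21a, Mmrn1 and Nts (233 cells), Col5a2 had 131 CPM from 181 UMIs in 81 cells, Col1a1 116 CPM and Dcn 3299 CPM. In the cluster led by Gpihbp1, Rbp7 and Cd36 (336 cells), Col5a2 had 49.0 CPM and Col1a1 237 CPM.

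The GFP transcript of the tracer had 263, 201, 157, 258, 8 and 6 UMIs in libraries 1 to 6, so 4 libraries held more than 100, whereas the labels give the tracer to 2 mice. In these 4 libraries, VSMC-like cells with a GFP UMI (425 cells) had a log2 ratio to the other VSMC-like cells of 0.09 for Col1a1 (0.01 to 0.17, higher in 4 of 4 libraries), 0.10 for Col5a2 (0.02 to 0.49, 4 of 4) and -0.05 for Col5a1 (-0.37 to 0.09, 1 of 4). The ratios of Col1a2 (0.10, -0.04 to 0.13) and Col3a1 (0.07, -0.06 to 0.24) were above 0 in 3 of 4 libraries. In fibroblast-like cells (251 with a GFP UMI), the ratio was -0.06 for Col1a1 (-0.26 to 0.31, 1 of 4) and 0.27 for Col5a2 (-0.12 to 0.50, 3 of 4). Cells with a GFP UMI were not matched in depth to the others. The share of all genes with 1 direction in these 4 libraries was not computed, so the counts of libraries do not set the members apart.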
